A study of Mus musculus with 6 samples.

Results

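Open chromatin around 9 genes of proximal T cell receptor signalling was examined in 6 thymus libraries: Lck, Fyn, Zap70, Lat, Lcp2, Themis, Rasgrp1, Prkcq and Itpkb. The genes were chosen by their function, with earlier results of these data known. All summits from 50 kb before to 50 kb after each gene body were taken, a summit being the position of highest signal in a peak. Summits of all libraries were extended by 250 bp per side and merged, which gave 275 regions at the 9 genes out of 73702 regions in all.

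The study compared the thymus of mice with germline changes of p53 at 4 weeks of age. In 1 group the mice carried the AD allele, which the series describes as dimeric, over a p53 null allele (p53 AD/-). In the other both alleles were null (p53 -/-, called null here). Each group had 3 libraries, both genotypes carry at least 1 null allele, no wild-type thymus is part of the comparison, and the strain of all mice was in equal parts BALB/C and C57BL6. Replicates were numbered in order of deposition, and nothing in the labels says that they came from separate litters or preparations, so p-values measure only the spread between these libraries.

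When the T cell receptor binds its ligand, the Src-family kinases Lck and Fyn phosphorylate the CD3 and zeta chains, and the kinase Zap70 docks there. Zap70 then phosphorylates the scaffold Lat and the adaptor SLP-76, the product of Lcp2. The complex that forms on them activates phospholipase C, whose products open the branches to Ras, through Rasgrp1, and to NF-kB, through protein kinase C theta, the product of Prkcq. Thymocytes need this cascade for pre-T cell receptor signalling and for positive and negative selection.

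The libraries held 44496 to 60160 summits, the fewest in AD/- library 3. Read depth is unknown, and the length of each list tells how much a library detected. The deposited scores of summits also differed between libraries. At the start of Lat the score was 1269 in null library 2 and 274 to 424 in the others. Gene starts of thymocyte markers had a summit within 1 kb in all 6 libraries in 7 of 7 cases. This was so for 1 of 3 B cell, 0 of 3 myeloid, 1 of 5 erythroid, 2 of 6 thymic epithelial and 1 of 2 endothelial and mesenchymal markers. In whole thymus a weaker signal can come from fewer cells of a type or from less open chromatin per cell, and these cannot be told apart.

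Lck is annotated with a distal start and a proximal start 15.3 kb downstream of it. The proximal promoter is known for use in thymocytes and the distal one for use in mature T cells. The sequences below show the 250 bases before these 2 starts, and those before the first start of Zap70 and the start of Rasgrp1, because summits lay inside or beside them in every library. They are RefSeq sequences of GRCm38.p6, read 5′ to 3′ in the direction of transcription. Capitals mark matches on either strand to the motifs searched.
Lck distal, chr4:129573642-129573891, minus strand: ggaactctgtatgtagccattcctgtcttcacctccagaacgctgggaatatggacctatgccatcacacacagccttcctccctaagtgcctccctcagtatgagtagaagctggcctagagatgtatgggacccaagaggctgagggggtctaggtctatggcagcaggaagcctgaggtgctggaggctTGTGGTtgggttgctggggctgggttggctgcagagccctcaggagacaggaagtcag
Lck proximal, chr4:129558373-129558622, minus strand: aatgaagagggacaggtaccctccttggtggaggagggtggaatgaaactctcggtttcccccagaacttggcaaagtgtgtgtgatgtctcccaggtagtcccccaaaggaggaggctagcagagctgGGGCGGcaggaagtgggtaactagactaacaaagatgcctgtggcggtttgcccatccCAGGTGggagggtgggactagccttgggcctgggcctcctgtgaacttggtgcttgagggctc
Zap70, chr1:36761548-36761797, plus strand: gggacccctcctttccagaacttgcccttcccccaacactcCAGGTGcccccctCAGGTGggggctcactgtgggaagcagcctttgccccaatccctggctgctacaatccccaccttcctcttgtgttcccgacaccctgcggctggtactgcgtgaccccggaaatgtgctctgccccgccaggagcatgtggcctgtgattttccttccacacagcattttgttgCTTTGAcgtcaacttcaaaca
Rasgrp1, chr2:117342878-117343127, minus strand: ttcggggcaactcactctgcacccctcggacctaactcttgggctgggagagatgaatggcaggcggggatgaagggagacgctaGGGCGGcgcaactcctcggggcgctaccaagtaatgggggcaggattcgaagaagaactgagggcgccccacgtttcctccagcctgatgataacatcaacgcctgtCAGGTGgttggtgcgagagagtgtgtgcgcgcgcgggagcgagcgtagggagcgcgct

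The motifs were 6-letter cores, so matches are common. The 9 genes have 13 annotated starts. Of these, 2 held the RUNX core TGTGGT, against 12.2% of the 21045 starts in the table. The TCF/LEF core CTTTGA was before 3 of them (12.8% of all starts). The E-box CACCTG was before 4 (17.0%), the E-box CAGCTG before 1 (12.2%), the GATA core AGATAA before 1 (8.84%) and the GC box GGGCGG before 4 (43.1%). The exact letters CGGAAG, searched as an ETS core (17.3% of all starts), and the TATA box TATAAA (11.7%) were found before 0 of the 13. Other spellings of these motifs were not searched, so they are neither marked nor counted. AGGAAG, for example, stands unmarked before both starts of Lck, so the count for CGGAAG does not show that ETS sites are absent. In these 4 sequences the Lck distal start had a RUNX match and the proximal start a GC box and an E-box. Zap70 had 2 E-boxes and a TCF/LEF match, and Rasgrp1 a GC box and an E-box. These are descriptions of letters and not of binding.

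All 9 genes had a summit within 1 kb of an annotated start in all 6 libraries, compared with 55.2% of the 17274 protein-coding genes with a start in the table. A score percentile ranks a summit among all those of the same library, and 100 is the strongest. The median percentile of the start over the 6 libraries was highest for Lat (94.4), Fyn (91.7) and the proximal start of Lck (90.3). It was lower for Themis (88.5), Rasgrp1 (86.1), Itpkb (86.1) and Zap70 (84.4), and lowest for Prkcq (76.4) and Lcp2 (74.6). The ranges of Lat and Fyn overlapped, as did those of Prkcq and Lcp2. At every start with a summit within 1 kb in all 6 libraries, the percentiles of the AD/- and null libraries overlapped.

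**Figure D1:**
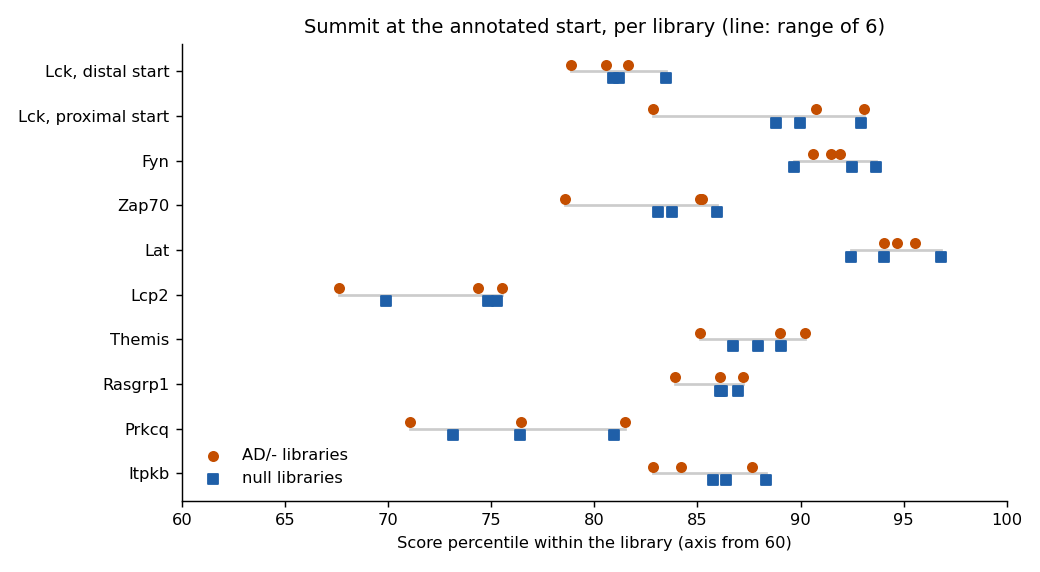
Score percentile of the summit at the annotated start (horizontal axis, from 60 to 100) for the 9 genes, with both starts of Lck. Circles are the 3 AD/- libraries, squares the 3 null libraries and lines the range of 6. The genotypes overlap in every row, and Lcp2 and Prkcq lie lowest, with medians of 74.6 and 76.4.

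Lck, which phosphorylates the receptor chains first, lies on chromosome 4 from 129548344 to 129573641. Both of its starts were open in every library. The proximal start stood at percentiles of 90.7, 93.1 and 82.8 in AD/- and 89.9, 88.8 and 92.9 in null, in the order of replicates 1 to 3. The distal start stood at 81.6, 80.5 and 78.9 in AD/- and 81.2, 83.5 and 80.9 in null. The proximal start thus ranked above the distal one in 6 of 6 libraries. At the proximal start, the summit lay 140 to 169 bp upstream in AD/- library 2 and the null libraries, within the printed sequence. In AD/- libraries 1 and 3 it lay 299 and 338 bp upstream, beyond that sequence. At the distal start all 6 summits lay 15 to 34 bp upstream.

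A further 2 regions upstream of the distal start were as strong as the start itself. They lay 1.76 and 11.5 kb upstream and had medians of 81.3 and 81.2. Weaker regions at 3.60 kb, beside the end of Fam167b, and at 6.79 kb upstream had medians of 56.5 and 46.4. The window of Lck is dense in other genes, and the regions at gene ends of Hdac1 (94.4), Marcksl1 (90.9), Iqcc and Ccdc28b (90.1), and Eif3i and Tmem234 (86.4) ranked as high as or higher than the distal start. The strongest region away from gene ends lay 36.6 kb upstream of the distal start, with a median of 86.8, below the proximal start in 6 of 6 libraries. Of 19 regions, 13 were found in all 6 libraries. A summit at 129556614, between the proximal start and the 3′ end, was called in null library 2 alone, at a percentile of 69.7.

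**Figure D2:**
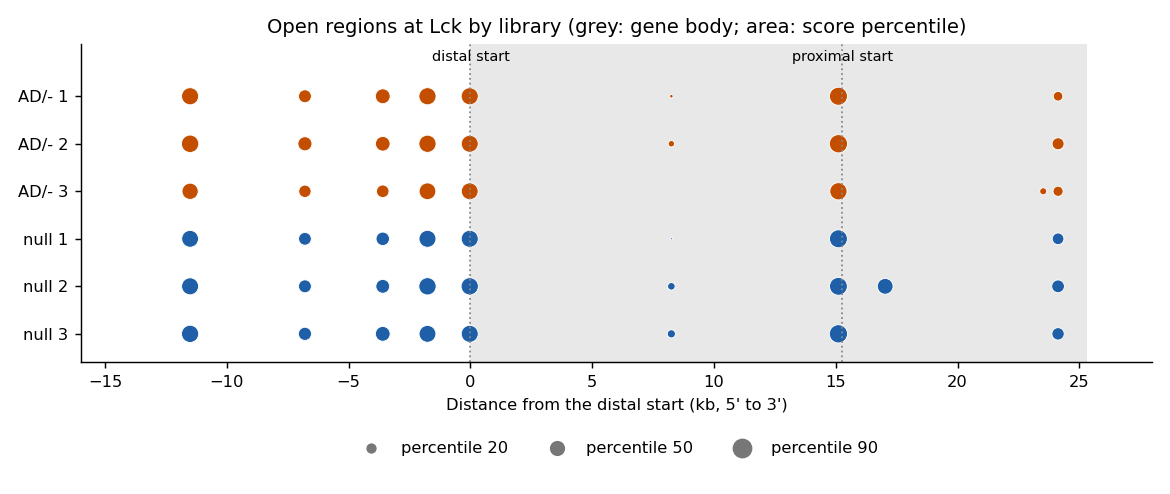
Open regions at Lck in each library, by distance from the distal start in kb along the direction of transcription, with the area of a point showing its score percentile and grey marking the gene body. Both starts and the 4 regions 1.76 to 11.5 kb upstream recur in all 6 libraries, and the point near 17 kb is in null library 2 alone.

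Fyn, the second Src-family kinase of thymocytes, spans 196 kb of chromosome 10 from 39369743 to 39565381. Its start stood at 91.5, 91.9 and 90.6 in AD/- and 89.7, 93.7 and 92.5 in null. The body held 34 regions, of which 12 were found in all 6 libraries. The strongest region away from gene ends lay 133 kb inside the gene, at 39502466 to 39502493. Its percentile was 69.4, 75.4 and 63.2 in AD/- and 70.3, 68.5 and 72.7 in null, below the start in 6 of 6 libraries.

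Zap70, the kinase that docks on the phosphorylated receptor, lies on chromosome 1 from 36761798 to 36782821 and has 3 annotated starts. The first was open in all libraries, at 85.1, 85.2 and 78.6 in AD/- and 83.1, 86.0 and 83.8 in null. Its summits fell on 2 positions only, 7 and 9 bp into the gene, in every library. The second start, at 36764515, had no summit within 1 kb in any library. The third had a summit within 1 kb in 4 of 6 libraries, at percentiles from 10.9 to 30.0. The strongest region away from gene ends lay 35.9 kb downstream of the first start, inside the neighbouring gene Tmem131, with a median of 86.9. It ranked above the start in 6 of 6 libraries, although in null library 2 by 85.98 to 85.96.

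Lat, the membrane scaffold phosphorylated by Zap70, is the shortest of the genes, at 5.88 kb, on chromosome 7 from 126363827 to 126369705. Its start had the highest percentiles of the 9, at 94.7, 94.1 and 95.5 in AD/- and 92.4, 96.8 and 94.1 in null. The start is also within 1 kb of an end of Spns1, so this region belongs to both genes. The other end of Spns1 (94.6) and an end of Nfatc2ip (93.9) were as strong. Away from gene ends the strongest region was 29.9 kb downstream of the start, with a median of 82.5.

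Lcp2 encodes SLP-76, which Lat recruits. It lies on chromosome 11 from 34046928 to 34092281. Its start was the weakest of the 9, at 74.4, 75.5 and 67.6 in AD/- and 69.9, 74.8 and 75.3 in null. The summit lay 225 to 273 bp into the gene in 5 libraries and 415 bp in AD/- library 3. A region 17.3 kb inside the gene, at 34064154 to 34064224, was stronger, at 89.3, 90.7 and 83.4 in AD/- and 90.9, 87.3 and 88.1 in null. It ranked above the start in 6 of 6 libraries. Another region 31.1 kb inside the gene had a median of 80.5.

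Themis encodes a protein that is needed for positive selection of thymocytes and binds the adaptor Grb2. It spans 215 kb of chromosome 10 from 28668360 to 28883820 and has 2 starts 35 bp apart. Its start was strong, at 89.0, 90.2 and 85.1 in AD/- and 86.7, 89.0 and 88.0 in null. The share of recurring regions was the lowest of the 9 genes. Of 67 regions in the window, 11 (16.4%) were found in all 6 libraries and 29 in 1 library alone. The body held 57 regions, of which 49 were missing from at least 1 library. Those missing from at least 1 library over the whole window had a median percentile of 6.15, compared with 13.0 for such regions in the whole series. This median was as low in Rasgrp1 (6.54) and lower in Itpkb (3.88).

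Summits with a percentile below 20 made up most of the Themis body in every library. They were 11 of 18, 19 of 27 and 16 of 21 summits in AD/- and 10 of 16, 22 of 29 and 23 of 29 in null. The genotypes overlapped in this count. Regions missing from at least 1 library numbered 22.7 per 100 kb of the Themis body and 7 per 100 kb of its flanks. Among the 4941 protein-coding genes of at least 50 kb, 6 had a higher density of such regions in their body, and the median was 1.42 per 100 kb. Of the 7516 genes with at least 10 regions in their window, 27 had a lower share found in all 6 libraries. The strongest region away from gene ends lay 48.8 kb upstream, with a median of 83.5.

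**Figure D3:**
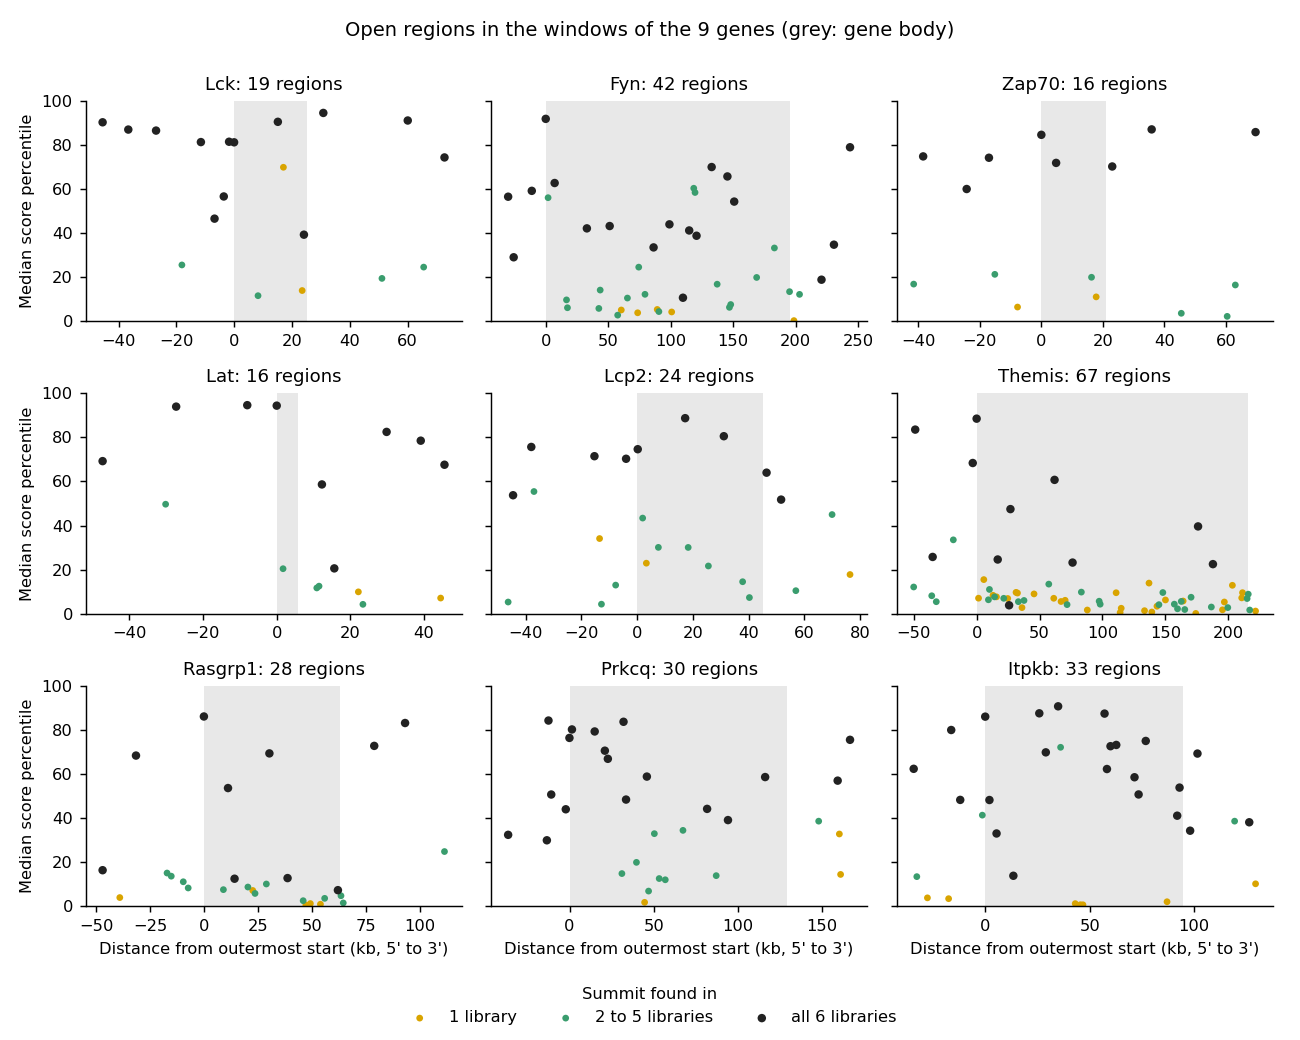
Regions of each gene by distance from its outermost start (kb, 5′ to 3′) and by median score percentile. Grey marks the gene body, black points are regions found in all 6 libraries, green in 2 to 5 and yellow in 1. In Themis, and to a lesser degree Rasgrp1, the body is lined with regions of low percentile that are missing from at least 1 library. In Itpkb recurring regions are spread over the body, with medians from 13.9 to 90.7. The strongest of them lie 25.9 to 57.1 kb from the start. In the body of Prkcq the strongest recurring regions lie within 32.1 kb of the start. Another recurring region of Prkcq, with a median of 75.5, lies outside the body, 167 kb from the start.

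Rasgrp1 encodes the exchange factor that activates Ras on diacylglycerol. It lies on chromosome 2 from 117279983 to 117342877. Its start stood at 86.1, 87.2 and 83.9 in AD/- and 87.0, 86.1 and 86.2 in null. The summit lay 134 bp upstream in AD/- libraries 1 and 2 and null library 3, 93 bp upstream in AD/- library 3, and 16 and 14 bp upstream in null libraries 1 and 2. All of these lie within the printed sequence. Of 28 regions, 10 recurred in all 6 libraries. Inside the body, 10 of 15 regions were missing from at least 1 library, a density of 15.9 per 100 kb. This density was exceeded by 29 of the 4941 long genes. As in Themis, most body summits had percentiles below 20, with 5 of 7, 11 of 13 and 4 of 6 in AD/- and 5 of 7, 8 of 11 and 8 of 10 in null. The strongest region away from gene ends was 78.9 kb downstream of the start (median 72.8), below the start in 6 of 6 libraries.

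Prkcq encodes protein kinase C theta, which links the receptor to NF-kB. It spans 129 kb of chromosome 2 from 11171905 to 11301226. Its start stood at 76.5, 81.5 and 71.1 in AD/- and 76.4, 73.1 and 81.0 in null. A region 12.5 kb upstream, at 11159847 to 11159881, was stronger in 6 of 6 libraries, at 84.8, 85.0 and 79.7 in AD/- and 81.7, 84.3 and 84.3 in null. Inside the body, regions 1.44, 15.0 and 32.1 kb from the start had medians of 80.3, 79.3 and 83.7. Of 30 regions, 18 were found in all 6 libraries.

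Itpkb encodes the kinase that turns inositol trisphosphate into inositol tetrakisphosphate, which thymocytes need for positive selection. It lies on chromosome 1 from 180330390 to 180424802. It had the most recurring regions of the 9, with 22 of 33 found in all 6 libraries and 16 of these inside the body. The start stood at 84.2, 87.7 and 82.8 in AD/- and 85.7, 88.3 and 86.4 in null. A region 34.9 kb inside the gene, at 180365398 to 180365403, was stronger in 6 of 6 libraries, at 90.4, 92.0 and 91.1 in AD/- and 90.3, 91.9 and 90.4 in null. Its 6 summits lay within 5 bp of each other. Regions 25.9 and 57.1 kb inside the gene followed, with medians of 87.6 and 87.4.

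In 4 of the 9 genes (Zap70, Lcp2, Prkcq and Itpkb) the strongest region away from gene ends thus ranked above the start in every library, and in the other 5 it ranked below the start in every library. For Lck this compares with the proximal start. Against the distal start of Lck, the same region ranked above in every library, so the grouping of Lck depends on the start chosen. The regions compared were picked for their rank, so this is a description.

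Over all 9 genes, 118 of 275 regions (42.9%, 95% Wilson interval 37.2 to 48.8, counting error only) were found in all 6 libraries, compared with 52.1% of all regions. Without Themis the share was 51.4% (107 of 208). The share was 68.4% for Lck, 66.7% for Itpkb, 60% for Prkcq, 56.2% for Lat and 50.0% for Zap70. For Fyn it was 42.9%, for Lcp2 37.5%, for Rasgrp1 35.7% and for Themis 16.4%. Every one of the 9 windows held more regions per 100 kb than 90.5% of protein-coding genes, from 13.1 in Prkcq to 21.2 in Themis, against a median of 4.89. For regions found in all 6 libraries the order changed. Itpkb had 11.3 per 100 kb and Lck 10.4, and Themis had the fewest at 3.49, with a median over all genes of 2.71.

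**Figure D4:**
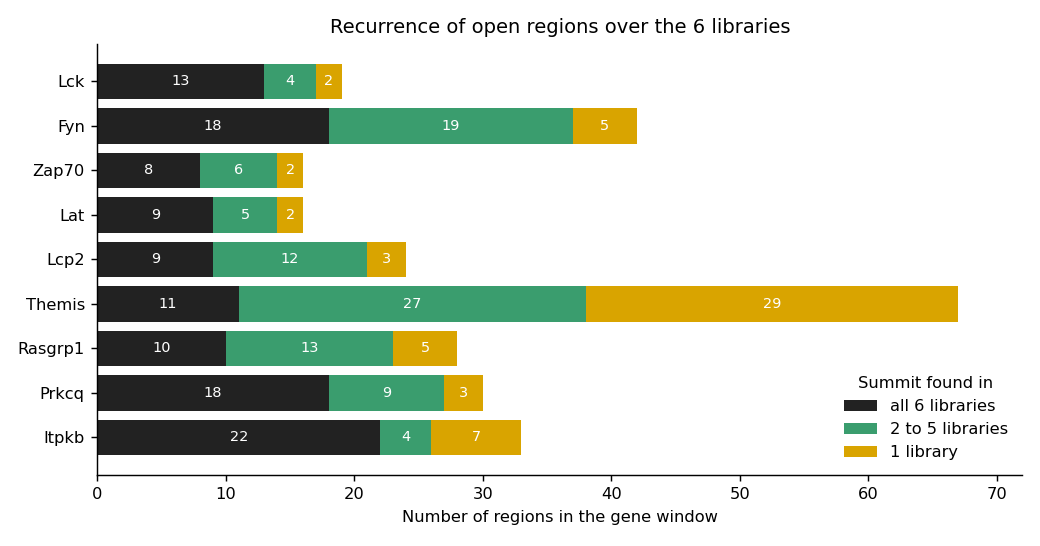
Number of regions in each gene window (horizontal axis) by the number of libraries in which a summit was found. Themis has the most regions, 67, of which 11 recur in all 6 libraries, and Itpkb has the most that recur, 22 of 33.

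Within 1 kb of a gene end, 20 of 25 regions of these windows (80.0%) recurred in all 6 libraries, compared with 78.9% over the whole series. Away from gene ends 98 of 250 (39.2%) did, compared with 46.0%. Where each of the 6 libraries had 1 summit in a region, the summits spanned a median of 47.5 bp at these genes (116 regions) and 48.0 bp in the series. Of the 25 regions found in 5 libraries, 15 (60%) lacked AD/- library 3, the shortest list, compared with 73.2% of such regions in the series.

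The study's question was which open regions differ between the genotypes. Among the 275 regions, 1 had a summit in each AD/- library and none in the null libraries (0.364%; an AD/- region), compared with 0.179% of all regions. The reverse pattern, a null region, was found 0 times, compared with 0.418% of all regions. Both counts are too small to tell from the background. A single region cannot pass a test here, because 3 against 3 libraries give at best p = 0.10 by Fisher's exact test. The AD/- region lay 31.1 kb inside Prkcq, on chromosome 2 from 11203505 to 11203509. Its percentiles were 14.9, 18.5 and 6.18, all low, and its scores 7.66, 9.61 and 3.64. A null summit lay 878 bp away, in the recurring region with a median of 83.7.

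The call at Prkcq did not hold with a score of at least 5, with lists of equal length or with extensions of 500 bp. It has no replicate check beyond the 3 libraries themselves. When a library was left out, so that 2 against 3 sufficed, the number of AD/- regions was 5 of 265 without AD/- library 3 (1.08% of all regions). It was 2 of 269 without AD/- library 1 (0.444% of all regions) and 2 of 262 without null library 2 (0.369%). The number of null regions was 5 of 262 without AD/- library 2 (1.84% of all regions), 4 of 272 without null library 1 (1.26%) and 3 of 264 without null library 3 (0.955%). It was 2 of 269 without AD/- library 1 (0.822%), 1 of 265 without AD/- library 3 (0.558%) and 1 of 262 without null library 2 (1.08%). With a score of at least 5, a Fyn region at 39386200 to 39386451 became a null region. Its null percentiles were 9.58, 12.5 and 7.98, and its AD/- percentiles 3.13 and 9.97 in libraries 1 and 3. The same score is a different percentile in each library. The cut removed AD/- library 3 (score 4.71, percentile 9.97) but kept null libraries 1 (5.42, 9.58) and 3 (5.21, 7.98).

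Strength within shared regions was compared by ranking each library over the 38374 regions found in all 6. The 3 AD/- ranks lay above the 3 null ranks in 8 of the 118 regions (6.78%), compared with 5.05% of all shared regions. The 3 null ranks lay above in 5 (4.24%), compared with 4.65%. Both shares were near the background. The widest gap was at a region 25.7 kb upstream of the Fyn start, at 39344121 to 39344185. There the ranks were 14.2, 14.7 and 18.1 in AD/- and 8.03, 7.44 and 8.66 in null. No start of the 9 genes was among the 13 regions. Without AD/- library 3 the share with higher AD/- ranks was 15.8%, compared with 11.3% of all regions. Leaving out any 1 library gave 8.33% to 15.8% with higher AD/- ranks, compared with 8.75% to 12.2% of all regions. The share with higher null ranks was then 5.88% to 10%, compared with 8.25% to 11.6%.

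The number of summits in the 9 windows was 177, 204 and 163 in the AD/- libraries and 169, 199 and 204 in the null libraries. The AD/- mean was 181 ± 20.8 and the null mean 191 ± 18.9 (SD over 3 libraries). The difference of −9.33 summits was within the spread between libraries (exact permutation test, two-sided, p = 0.7, smallest possible 0.10). Without AD/- library 3, which had the fewest, it was −0.167, and it reached −20.7 without AD/- library 2 and −20.2 without null library 1. With lists of equal length the sign turned, to means of 142 in AD/- against 129 in null (p = 0.4 by exact permutation). That length was 44492 summits, the whole list of AD/- library 3 on the autosomes and X. This library kept all of its 163 summits in the windows, while every other list was cut. As a share of each library's summits, the AD/- windows held 0.343% ± 0.0214 and the null windows 0.340% ± 0.0247 (SD over 3 libraries, p = 1 by exact permutation).

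No single gene differed by more than the spread between libraries. Themis had 22, 34 and 27 summits in AD/- and 22, 36 and 36 in null, a difference of −3.67 (p = 0.6 by exact permutation). Fyn had 32, 32 and 25 in AD/- and 31, 33 and 36 in null, also a difference of −3.67 (p = 0.4 by exact permutation, the lowest of the 9). Zap70 had 10, 13 and 9 in AD/- and 11, 11 and 14 in null. Rasgrp1 and Itpkb had equal means in both genotypes, 18.3 and 26. After Benjamini-Hochberg adjustment over the 9 genes every exact permutation p was 1.

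**Figure D5:**
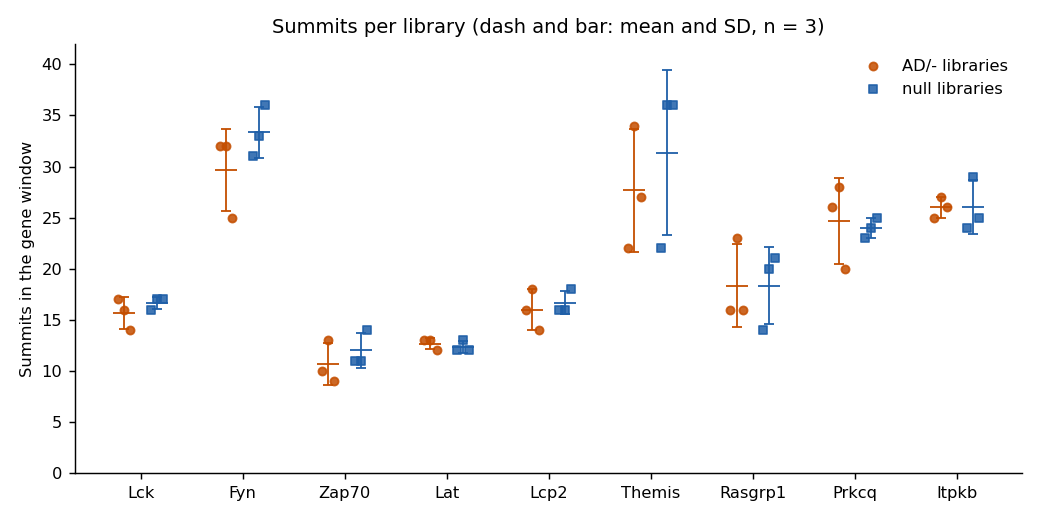
Summits in the window of each gene, per library, with circles for the 3 AD/- and squares for the 3 null libraries. Dashes and bars are the mean and SD (n = 3). The genotypes overlap in all 9 genes, and Themis has the widest range, from 22 to 36.

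The same measures were taken for the other genes of the pathway. Of 25 pathway genes with a start in the table, among them Plcg1, Vav1, Grb2 and Bcl10, 24 were open at the start in all 6 libraries. The exception was Grap2, the adaptor Gads that binds SLP-76, with a summit at its start in 0 libraries but 17 regions of all 6 libraries in its window. The CD3 chains and pre-T cell receptor alpha were open at the start in 5 of 5 cases and the brakes of the pathway in 14 of 14. Of their relatives in B and myeloid cells, 4 of 8 were open in all 6 libraries. Blnk was open in all libraries but AD/- library 3, the shortest list. Btk and Cd79a were open in 0 libraries and Rasgrp3, the B cell relative of Rasgrp1, in null library 1 alone. Syk, the relative of Zap70, and Prkcb, that of Prkcq, were open in all 6.

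Around the 40 pathway genes, 1 of 817 regions was an AD/- region (0.122%) and 6 were null regions (0.734%). Over all regions these shares were 0.179% and 0.418%. The AD/- region lay inside Fyb, an adaptor of integrin activation, at percentiles of 1.29 to 13.1, and a null region also lay inside Fyb (1.58 to 6.06). Further null regions lay inside Txk, in the window of its neighbour Tec as well (0.302 to 13.0), inside the exchange factor gene Vav1 (0.0655 to 6.52), inside the calcium channel gene Itpr1 (11.3 to 17.5) and near Cd6 (14.1 to 15.3). Around the brakes, 2 of 391 regions were null regions (0.512%, compared with 0.418% of all regions). These were the region shared with Cd6, near Cd5, and a region near Sit1 (6.77 to 8.49). Around the receptor chains 0 of 65 regions followed genotype, too few regions to tell from the shares over all regions. Around the relatives 1 of 186 regions was a null region, near Syk (21.3 to 23.2), and 1 was an AD/- region (0.538% each). By gene, 7 of 40 pathway genes had a null region in their window, compared with 2.65% of all protein-coding genes, and 1 had an AD/- region, compared with 1.15%. These windows are denser than average, with a median of 19 regions against 7, and the differences were not tested.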

How the data were processed

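Per the labels, the 6 thymus samples were profiled by ATAC-seq. For every library the authors deposited a summit list on the build GRCm38. Each list gives 1 bp positions and a score. It is taken here as a −log10 q-value, because the deposited scores start near 1.30 and a q-value of 0.05 equals 1.30. MACS2 2.1.2, Bowtie2 2.3.4.2, Trim Galore 0.4.5 and Picard 2.9.0 are named in the submitters' processing notes. Their roles and settings, any cut-site shift, duplicate removal and masking are not given in the sources used here. Read depth is unknown.

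Summits of the autosomes and X were merged genome-wide after extension by 250 bp per side (Python 3.11.15, pandas 2.3.3). A region belonged to a gene when one of its summits lay within 50 kb of the RefSeq gene body (GRCm38.p6). Gene starts and upstream sequences came from a RefSeq promoter table of the same build, which holds a start for 17274 of 21631 protein-coding genes, and list genes were counted only where they have one. The merge and the genotype calls were run on simulated lists with planted regions, each present in every library of its genotype and in no other. That run checks the code and cannot show how well weak or neighbouring summits are called. Genotypes were compared by exact permutation of the libraries, two-sided. The 9 genes, the gene lists and the motifs were chosen with earlier results of these data known. All 9 are named with their start, their strongest region and any region of 1 genotype. Genes of the other lists are named when a region of 1 genotype lies in their window or no library has a summit at their start; some of these are not reported here. Alternatives were extensions of 100 and 500 bp, windows of 20 and 100 kb, equally long lists, a score of at least 5, start distances of 500 bp and 2 kb, and each library left out.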

Additional observations from a re-analysis of the deposited data

How the results depend on the processing

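Of 98 values recomputed under the alternatives, 77 were classed as unchanged. Counts had to stay within 1.5 times the reported count, and shares within the 95% interval of the reported share. The difference in summits was judged by its sign alone, whatever its size. It kept its sign in 11 alternatives and turned in 1. All 9 genes kept a summit at the start under every alternative run. The share of regions found in all 6 libraries was 55.0% with lists of equal length (63.1% of all regions) and 51.4% without the Themis window, an alternative chosen after seeing the data. The count of AD/- regions was 0 with extensions of 500 bp, 0 with a score of at least 5 and 0 with lists of equal length, and the count of null regions was 1 with a score of at least 5. The difference in summits turned to 13.0 with lists of equal length, and the cause was not tested. The share of shared regions with higher null ranks was 1.14% with windows of 20 kb, which is 1 of 88 (4.65% of all regions). Leaving out 1 library gave 262 to 272 regions, 44.1% to 50.2% found in every remaining library, 1 to 5 AD/- regions (0.322% to 1.08% of all regions), 1 to 5 null regions (0.558% to 1.84%), and a difference of −20.7 to −0.167 summits. The share with higher AD/- ranks was then 8.33% to 15.8% (8.75% to 12.2% of all regions) and with higher null ranks 5.88% to 10% (8.25% to 11.6%). No paired analysis was possible because the labels give no replicate numbers. With 3 libraries per genotype and unknown depth, no single region could pass a test.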

Other observations

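Few genes resembled Themis in the density of regions missing from at least 1 library. Among the protein-coding genes of at least 50 kb, 6 had more such regions per 100 kb of gene body than Themis (22.7). They were Glcci1 (38.7), Sfi1 (33.6), Satb1 (33.0), Bcl11b (23.5), Arpp21 (23.4) and Hdac7 (23.1), and are named here after their values were seen. Satb1 encodes a chromatin organiser of thymocytes, Bcl11b a regulator of T cell commitment and Hdac7 a deacetylase active in thymocyte selection. Arpp21, like Themis, had 11 regions found in all 6 libraries, of 56 in its window. Satb1, Bcl11b, Sfi1 and Hdac7 had 15 each and Glcci1 had 6. Among the 5 signalling genes of at least 50 kb, Rasgrp1 (15.9) and Fyn (11.2) came after Themis, and Itpkb (5.30) was lowest. The shorter Lat (17.0), Lcp2 (15.4) and Lck (11.9) had values in the same range, from 1, 7 and 3 regions in their bodies.

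Regions of the upper score range that a library lacked were few. Of the 157 regions at the 9 genes missing from at least 1 library, 6 had a median percentile of at least 50 (3.82%), compared with 3.81% in the series. They lay in Itpkb (72.2), Lck (69.7), Fyn (60.2, 58.3 and 55.9) and upstream of Lcp2 (55.4). In 5 of the 6, each library without a summit there had one within 2 kb, compared with 72.8% of such regions in the series. In Fyn, null library 2 lacked the region at 39488181 to 39488197 and null library 3 its neighbour at 39489196 to 39489215, while the other 4 libraries had both. The lists give summit positions and no peak widths, so whether neighbouring summits fell into 1 peak in some libraries was not tested.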
